A study of Mus musculus with 8 samples.

Results

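In mouse embryonic stem cells, 181 genes formed a staircase over 3 groups: highest in lncSmad7 knockout cells whose label says that they received Smad7, intermediate in untreated knockout cells, and lowest in wild type cells. lncSmad7 is a long noncoding RNA gene. The genes were chosen from the deposited counts of 55292 features, scaled by the column total to CPM (counts per 1000000 counts of the library). The mean of the transfected knockout had to be at least 2.5 times that of the untreated knockout and at least 10 CPM, and the mean of the untreated knockout at least 2.5 times that of wild type. Names of clones (Gm with a number, or ending in Rik) were left out, and 9 such features also passed. Since these group means chose the genes, their levels and folds are given as a description, with no test.

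The cells were E14, an embryonic stem cell line of strain 129/Ola, grown on gelatin with serum and leukaemia inhibitory factor. All 3 groups were E14 cells in this medium, with 2 libraries of poly(A) RNA each: lncSmad7-/- cells whose treatment is given as Smad7 transfected (KO+Smad7, named with 24 h in the labels), lncSmad7-/- cells labelled untreated (KO), and wild type cells labelled untreated (WT). The replicates are described as biological, with no word on separate cultures, and the labels name neither the number of knockout clones nor the deleted interval. No mock-transfected group is among the 6 libraries used, so an effect of Smad7 and an effect of transfection cannot be told apart. Knockout cells given lncSmad7 were not analysed here, because 2 columns of the table, R1 and R2, could not be matched to these samples. The descriptions of the KO+Smad7 samples also end in R1 and R2. These samples have columns of their own name, and their match rests on that name.

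Facts of the libraries bear on every result below. Total counts were 13392941 and 15972163 in KO+Smad7, 20159897 and 19455030 in KO, and 19260386 and 20209760 in WT. Features with a count numbered 26358 and 27359 in KO+Smad7, 24849 and 24777 in KO, and 24446 and 24671 in WT. More features were thus counted in KO+Smad7 at fewer total counts, and the part of this in the results below was not tested. Mitochondrial transcripts took 2.48% and 2.33% of counts in KO+Smad7, 1.40% and 1.37% in KO, and 1.58% and 1.53% in WT, and the part of this difference in the results below was not tested. Smad7 itself stood at 109 and 115 CPM in KO+Smad7, 73.5 and 68.0 CPM in KO, and 85.9 and 86.4 CPM in WT, and the lncSmad7 feature at 12.5 and 13.0 CPM in KO+Smad7, 6.94 and 5.40 CPM in KO, and 12.3 and 10.9 CPM in WT. The lncSmad7 feature was thus still counted in KO, and without the deleted interval this does not check the knockout. Both features were higher in KO+Smad7 than in KO, so every direction given for KO+Smad7 rests on its label. Pou5f1, the defining transcription factor of pluripotent cells, was present in all libraries, between 658 and 1060 CPM. The summed level of 4 Y-linked genes (Ddx3y, Uty, Eif2s3y and Kdm5d) was 11.8 and 11.7 CPM in KO+Smad7, 4.71 and 4.01 CPM in KO, and 105 and 110 CPM in WT, so the knockout cells also differ from WT in Y-linked genes, and this difference and the knockout of lncSmad7 cannot be told apart.

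Of the 181 genes, 14 were assigned by hand to the response to low oxygen after the members were known. Other genes were given no role, so this count has no share over all genes beside it. In this pathway the prolyl hydroxylases of the Egln family mark hypoxia-inducible factors for destruction while oxygen is present. When the hydroxylases are inactive the factors pair with Arnt, bind a short core sequence in promoters and enhancers, and switch on genes for glycolysis, blood vessel growth, collagen processing and growth restraint. The early mammalian embryo develops in low oxygen. Smad7 is best known for another pathway: it blocks receptors of the TGF-beta superfamily, whose ligands include the bone morphogenetic proteins (BMPs).

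Promoter windows from RefSeq (GRCm38.p6, 250 bases before to 50 after each start) were found for 131 of the 181 genes. These are too few to draw a conclusion from motif shares of the whole group. Of 14 genes of the oxygen response in the group, 9 had a window and 5 of these (Ddit4, Egln3, P4ha1, Pfkfb3 and Vegfa) had at least 1 window with the core ACGTG on either strand. By window, 6 of the 12 windows of these 9 genes held the core. Over the 131 genes with a window it was 51 of 180 windows (28.3%). The core was in 26.6% of 9809 windows of other genes with at least 10 CPM in KO+Smad7. Of all 32851 windows 19.6% held it. With so few genes nothing is read from these shares. Windows of Ddit4, Egln3 and P4ha1 are shown as examples of the core far from and close to the start, with the core in capitals and each written along the strand of its gene. P4ha1 holds it on the other strand, so its capitals read CACGT.
Ddit4, chr10:59951721-59952020 (minus strand): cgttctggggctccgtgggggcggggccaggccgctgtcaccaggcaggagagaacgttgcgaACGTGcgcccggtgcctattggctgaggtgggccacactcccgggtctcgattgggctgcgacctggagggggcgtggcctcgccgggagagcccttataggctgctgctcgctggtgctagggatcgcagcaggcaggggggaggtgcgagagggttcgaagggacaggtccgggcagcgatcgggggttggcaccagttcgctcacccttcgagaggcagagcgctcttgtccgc
Egln3, chr12:54203825-54204124 (minus strand): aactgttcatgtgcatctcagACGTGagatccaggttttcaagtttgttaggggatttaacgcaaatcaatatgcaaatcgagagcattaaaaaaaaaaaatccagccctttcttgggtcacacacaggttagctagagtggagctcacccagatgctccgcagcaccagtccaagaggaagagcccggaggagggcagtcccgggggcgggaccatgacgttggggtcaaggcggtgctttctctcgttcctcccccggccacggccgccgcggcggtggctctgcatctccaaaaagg
P4ha1, chr10:59323046-59323345 (plus strand): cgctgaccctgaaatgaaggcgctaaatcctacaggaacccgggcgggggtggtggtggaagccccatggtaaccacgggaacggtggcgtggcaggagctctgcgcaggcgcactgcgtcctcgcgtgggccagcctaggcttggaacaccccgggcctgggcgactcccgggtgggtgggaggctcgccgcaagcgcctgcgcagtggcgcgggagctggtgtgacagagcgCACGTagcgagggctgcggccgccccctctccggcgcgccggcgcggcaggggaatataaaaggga
Counted in bases from the start site along the gene, the core begins at −187 in Ddit4, at −229 in Egln3 and at −16 in P4ha1. Such a match is a description of these letters, not a binding site.

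The 181 genes together took 1.07% and 1.09% of all counts in KO+Smad7, 0.294% and 0.297% in KO, and 0.0704% and 0.0701% in WT. Their summed level was 10696 and 10878 CPM in KO+Smad7, 2936 and 2969 CPM in KO, and 704 and 701 CPM in WT. Replicates lay close together: the median ratio between the 2 libraries of a group was 1.06 in KO+Smad7, 1.08 in KO and 1.16 in WT, where counts were lowest. In KO+Smad7 26 genes reached 100 CPM and 65 stayed under 20 CPM. In KO only Lrp1, Mfge8 and Plod2 reached 100 CPM, and in WT none did, with 50 under 1 CPM.

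**Figure D1:**
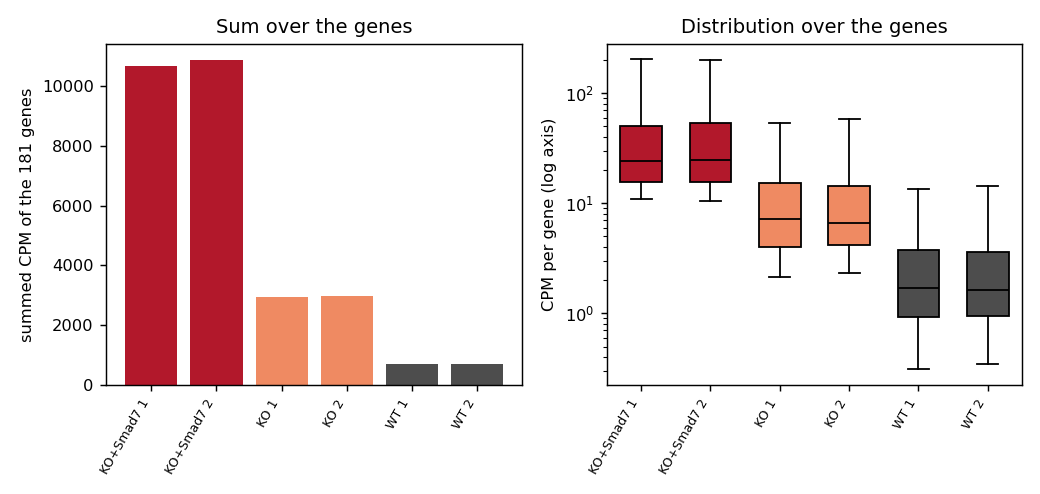
Levels of the 181 genes in each library, with KO+Smad7 in red, KO in orange and WT in grey. Left, summed CPM by column total; right, CPM per gene on a log axis as median (line), quartiles (box) and 5th to 95th percentile (whiskers), leaving out genes at 0. Both libraries of each group lie together, at sums of 10696 and 10878 CPM in KO+Smad7, 2936 and 2969 CPM in KO, and 704 and 701 CPM in WT.

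Among the 9602 genes without clone names that reached 10 CPM in KO+Smad7, 8.05% had a KO+Smad7 mean at least 2.5 times KO, 7.60% had a KO mean at least 2.5 times WT, and 1.89% met both. In all 181 genes the libraries were separate in the order KO+Smad7, KO, WT, as they were in 32.2% of the 9602 genes. This separation follows from the choice of the genes. In edgeR's quasi-likelihood fit of all 17342 genes tested, 37.8% passed upward and 36.8% downward between KO+Smad7 and KO, and 34.5% upward and 33.3% downward between KO and WT, at an adjusted p of 0.05. The 2 steps share the KO libraries, so they are not independent of each other.

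The step between KO and WT was more often the greater. The median ratio of means was 3.44 for KO+Smad7 over KO (range 2.51 to 15.1) and 3.76 for KO over WT (range 2.5002 to 74.7), and 13.9 for KO+Smad7 over WT. Of the 180 genes with a count in WT, 75 had the greater ratio between KO+Smad7 and KO and 105 between KO and WT. A ratio of at least 5 was reached by 26 genes for KO+Smad7 over KO and by 55 for KO over WT. Both ratios reached 5 in Ddit4, Ahnak2, Egln3, Trpm1, Vldlr, Ssc5d, Wls, Chrna4, Letm2, Card14 and Igfbp5, and in Stc1 if its lower bound against WT is used.

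**Figure D2:**
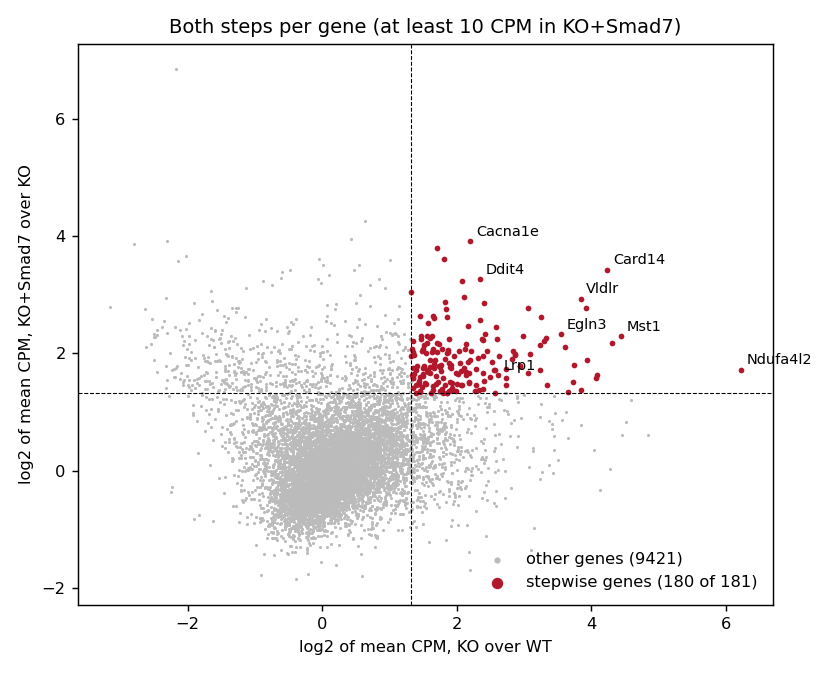
Each point is a gene without clone name with at least 10 CPM in KO+Smad7 and a count in WT; the axes are log2 ratios of mean CPM, KO over WT across and KO+Smad7 over KO upward. Dashed lines mark the ratio of 2.5, and 180 of the 181 stepwise genes (red) fill the upper right field by construction, with Stc1 (0 counts in WT) not drawn.

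The scaling sets how many genes meet the rule. Across all genes tested the median log2 ratio was 0.29 for KO+Smad7 over KO and 0.17 for KO over WT with column totals, but 0.04 and 0.02 with TMM factors (trimmed mean of M values), which correct for composition. With TMM factors 106 genes met the rule, all of them among the 181. The median ratio of the 181 genes (180 for KO over WT) then became 2.90 for KO+Smad7 over KO and 3.40 for KO over WT. TMM factors also lower the levels in KO+Smad7, so genes just above 10 CPM, such as Igfbp5, Robo3 and Antxr1, can miss the rule by that minimum. Ratios below are those with column totals. Log2 folds of genes outside the group are from edgeR with TMM factors, and so are lower at both steps than with column totals. Of the genes named in the text, those that did not meet the rule with TMM factors were Plod2, P4ha1, Pfkfb3 and Eno2 of the oxygen response, Hexa, Fuca2, Hyal1, Idua and Naglu of the lysosome, Mfge8, A2m, Col9a3, Adamtsl5 and Igfbp5 of the matrix, Notch3, Kcp, Sema4g, Robo3 and Antxr1 of signalling, Ccng2, Tnfaip3, Card14 and Parp10 of arrest and stress, and Sord, Patl2, Duox1, Cyp27a1, Slc38a3, Ppp2r2c, Letm2, Hormad1 and Platr11.

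Among the roles assigned by hand, the oxygen response had the highest median level, with 14 genes at a median of 134 CPM in KO+Smad7. Their ratios had a median of 3.91 for KO+Smad7 over KO and 5.45 for KO over WT, and 10 of the 14 met the rule with TMM factors. Ddit4, an inhibitor of the growth-promoting kinase mTOR that oxygen shortage and other stresses induce, had 714 and 707 CPM in KO+Smad7, 71.9 and 75.5 CPM in KO, and 13.3 and 15.6 CPM in WT. It was the highest of all 181 genes per length in KO+Smad7, at 405 CPM per kilobase of exons, and its ratio was 9.64 for KO+Smad7 over KO and 5.09 for KO over WT.

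An oxygen sensor was in the group. Egln3, a prolyl hydroxylase that is also a target of hypoxia-inducible factors, had 169 and 164 CPM in KO+Smad7, 31.5 and 35.1 CPM in KO, and 2.75 and 2.92 CPM in WT. Vegfa, the main growth factor for blood vessels, had 202 and 198 CPM in KO+Smad7, 49.7 and 53.5 CPM in KO, and 8.98 and 7.72 CPM in WT. Ndrg1, a stress-responsive gene linked to differentiation, had 210.3 and 227 CPM in KO+Smad7, 50.9 and 54.9 CPM in KO, and 10.3 and 9.15 CPM in WT. In all 3 genes the groups were apart, which follows from the choice of the genes, with KO+Smad7 at 3.88 to 5.01 times KO and KO at 5.45 to 11.7 times WT.

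The greatest ratio of KO over WT belonged to Ndufa4l2, a mitochondrial protein that is induced in low oxygen and restrains respiration. It had 87.1 and 88.5 CPM in KO+Smad7, 26.1 and 27.1 CPM in KO, and 0.415 and 0.297 CPM in WT, and was 74.7-fold higher in KO than in WT (log2 ratio 6.22, SD 0.34 from the spread of 2 libraries per group). Stc1, a secreted glycoprotein hormone, had 254 and 319 counts in KO+Smad7, 57 and 56 in KO, and 0 and 0 in WT. Against a floor of 3 counts over the WT libraries it was at least 257-fold higher in KO+Smad7 and at least 37.5-fold higher in KO, which covers counting error only. Its relative Stc2 had 109.7 and 114 CPM in KO+Smad7, 33.2 and 31.9 CPM in KO, and 4.05 and 4.404 CPM in WT.

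Enzymes that modify and cross-link collagen were in the group as well. Plod2, a lysyl hydroxylase of collagen, had 482 and 456 CPM in KO+Smad7, 119 and 119.8 CPM in KO, and 46.5 and 46.8 CPM in WT. P4ha1, a subunit of collagen prolyl 4-hydroxylase, had 187 and 194 CPM in KO+Smad7, 75.4 and 71.3 CPM in KO, and 17.9 and 20.9 CPM in WT, and like Plod2 it did not meet the rule with TMM factors. Loxl2, an oxidase that cross-links collagen and elastin, had 93.3 and 94.4 CPM in KO+Smad7, 18.6 and 19.6 CPM in KO, and 2.86 and 1.98 CPM in WT. By the choice of the genes, each of the 3 was lowest in WT and highest in KO+Smad7. Plod2 was only 2.56-fold higher in KO than in WT.

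Genes of glucose breakdown assigned to this set were a regulator and a neuronal isozyme. Pfkfb3, which makes the activator of phosphofructokinase, had 157 and 157 CPM in KO+Smad7, 53.6 and 54.8 CPM in KO, and 19.8 and 20.2 CPM in WT. Eno2, the enolase typical of neurons, had 39.4 and 44.3 CPM in KO+Smad7, 15.9 and 16.5 CPM in KO, and 3.48 and 2.97 CPM in WT. Neither met the rule with TMM factors. Vldlr, a lipoprotein receptor, had 48.8 and 45.4 CPM in KO+Smad7, 6.498 and 5.81 CPM in KO, and 0.415 and 0.445 CPM in WT, while Fgf11, an intracellular member of the fibroblast growth factor family, ranged from 18.6 to 21.6 CPM in KO+Smad7, 4.51 to 5.81 CPM in KO and 0.940 to 1.71 CPM in WT.

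**Figure D3:**
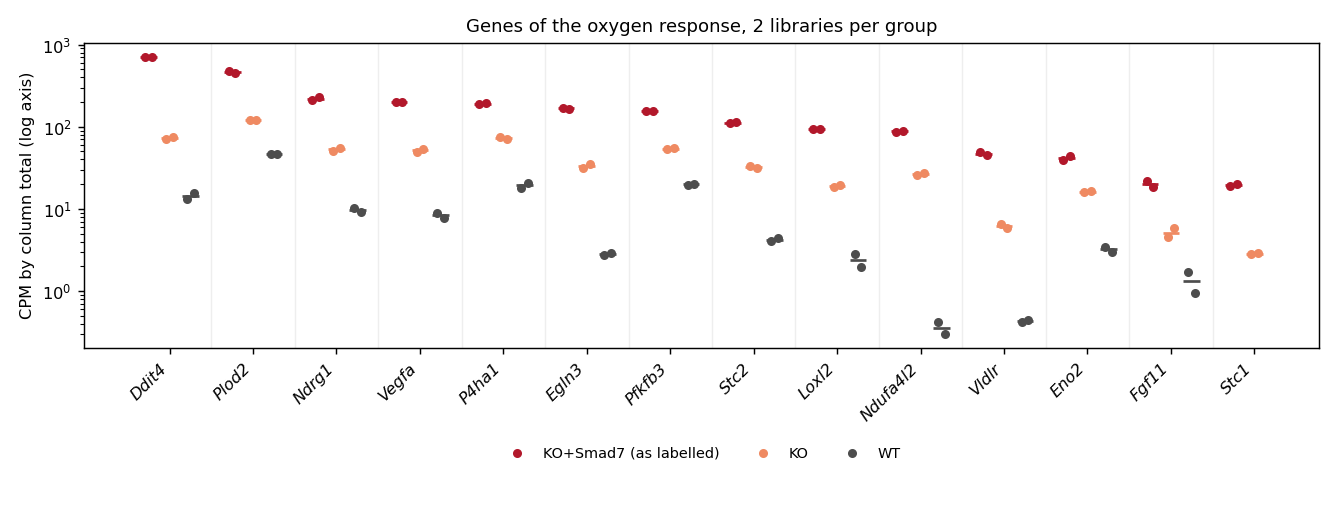
CPM by column total (log axis) of the 14 genes of the oxygen response, with 2 points per group for the libraries and a bar for their mean; KO+Smad7 red, KO orange, WT grey. The groups do not overlap in any gene, which follows from the choice of the genes. Stc1 has no WT points because both libraries had 0 counts. Ddit4 reaches 714 and 707 CPM in KO+Smad7.

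The rest of a wider list of 40 hypoxia and glycolysis genes was mixed between KO+Smad7 and KO. Of 39 tested, 10 were in the group, where 1.89% of the 9602 genes above met both ratios. The list was chosen with earlier results of these data known, so nothing is read from this count of members. Among the other 29, 20 were higher and 9 lower in KO+Smad7 than in KO by edgeR's test, with a median log2 fold of 0.37 (0.04 over all genes tested). Between KO and WT 22 were higher and 2 lower in KO, with a median of 0.80 (0.02 over all genes). Over all genes tested 37.8% were higher and 36.8% lower for KO+Smad7 against KO. For KO against WT the shares were 34.5% and 33.3%. The 9 lower in KO+Smad7 were Ldha (log2 fold −0.71), Eno1 (−0.63), Tpi1 (−0.61), Pkm (−0.57), Gapdh (−0.54), Pgk1 (−0.42), Pfkl (−0.34), Mxi1 (−0.24) and Aldoa (−0.20), of which all but Mxi1, a repressor that opposes Myc, encode enzymes of glycolysis. With column totals Aldoa and Mxi1 were not lower (ratios 1.03 and 1.01), while the other 7 stayed below KO at 0.726 to 0.937. In KO these 9 had all been higher than in WT, at log2 folds from 0.17 (Gapdh) to 2.31 (Pgk1). Named genes of the wider list were chosen after their values were seen.

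Other oxygen-responsive genes outside the group were higher at both steps but fell short of the ratio at one. Bnip3, which promotes removal of mitochondria, was higher by 0.61 on the log2 scale in KO+Smad7 than in KO and by 3.42 in KO than in WT. The transcriptional repressors Bhlhe40 (0.55 and 3.27) and Bhlhe41 (0.95 and 4.41) and the glucose transporter Slc2a1 (0.64 and 1.94) also had their greater step between KO and WT. P4ha2, an isoform of P4ha1, had its greater step between KO+Smad7 and KO (1.88 and 0.66). The adjusted p of these values by edgeR's test lay between 3.6e-10 and 3.8e-99. Further genes of the wider list did not share this pattern. Hk2 (−0.20) and Scd2 (−0.52) were lower in KO than in WT. Car9, Pdk1, Pfkfb4, Higd1a and Kdm3a did not pass there. Adm met both ratios with column totals (36.9 and 4.96) and missed only the minimum of 10 CPM, with a mean of 9.28 CPM in KO+Smad7.

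Genes of BMP, TGF-beta and Wnt signalling formed a small part of the group. Bmp7, a BMP ligand, had 20.5 and 22.04 CPM in KO+Smad7, 4.71 and 5.35 CPM in KO, and 0.986 and 1.34 CPM in WT. Acvrl1, a type I receptor of the TGF-beta superfamily best known from blood vessels, had 17.9 and 19.3 CPM in KO+Smad7, 6.101 and 5.91 CPM in KO, and 0.363 and 0.346 CPM in WT, and was 16.9-fold higher in KO than in WT. Kcp, a secreted modulator of BMP and TGF-beta signalling, had 18.7 and 19.03 CPM in KO+Smad7, 6.25 and 6.27 CPM in KO, and 2.34 and 2.23 CPM in WT. All 3 were low-level transcripts, and in WT Acvrl1 rested on 7 counts in each library.

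Tll1, a metalloprotease that frees BMPs from the inhibitor chordin, stood at 15.5 and 14.4 CPM in KO+Smad7, 5.26 and 4.11 CPM in KO, and 0.935 and 1.19 CPM in WT. Scube3, a secreted protein that binds TGF-beta receptors, was the highest of these genes, with 94.8 and 94.6 CPM in KO+Smad7, 26.4 and 28.7 CPM in KO, and 3.79 and 3.41 CPM in WT. On the Wnt side, the ligand Wnt6 had 27.9 and 23.9 CPM in KO+Smad7, 7.89 and 7.504 CPM in KO, and 2.91 and 2.52 CPM in WT. Wls, the carrier that Wnt ligands need for secretion, had 31.7 and 29.1 CPM in KO+Smad7, 6.05 and 6.01 CPM in KO, and 0.831 and 1.43 CPM in WT. Of these 7 genes 6 met the rule with TMM factors, and the exception was Kcp.

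None of the 24 tested genes on a list of TGF-beta superfamily targets was in the group. With 1.89% of the 9602 genes above in the group, nothing is read from this. By edgeR's test 12 of them were higher and 5 lower in KO+Smad7 than in KO (median log2 fold 0.32). Between KO and WT 8 were higher and 13 lower in KO (median −0.33). Over all genes tested the shares were 37.8% higher and 36.8% lower for KO+Smad7 against KO. For KO against WT they were 34.5% and 33.3%. Id1, Id2 and Id3, inhibitors of differentiation that BMPs induce, were lower in KO than in WT (−0.96, −0.68 and −0.45), and did not pass between KO+Smad7 and KO (0.05, 0.07 and −0.08; adjusted p = 0.30, 0.23 and 0.34).

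Lysosomal genes in the group were mostly hydrolases that break down sugar chains. Hexa, the alpha subunit of beta-hexosaminidase, had 178 and 171 CPM in KO+Smad7, 66.3 and 68.9 CPM in KO, and 22.3 and 21.03 CPM in WT. Naglu, which acts on heparan sulfate, had 19.6 and 21.1 CPM in KO+Smad7, 7.29 and 8.74 CPM in KO, and 0.779 and 0.495 CPM in WT. Fuca2, Hyal1 and Idua, which act on fucose, hyaluronan and iduronic acid residues, reached 26.6 to 39.9 CPM in KO+Smad7, 8.995 to 16.1 CPM in KO and 2.54 to 4.93 CPM in WT. Gpnmb, a glycoprotein of melanosomes and stressed lysosomes, had 12.02 and 12.1 CPM in KO+Smad7, 1.64 and 1.44 CPM in KO, and 0.415 and 0.297 CPM in WT, a ratio of 7.84 for KO+Smad7 over KO.

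Of these 6 genes, Gpnmb met the rule with TMM factors and the other 5 did not, and the ratio of those 5 for KO+Smad7 over KO lay between 2.52 and 3.09 with column totals. Lamp2, a lysosomal membrane protein, was just outside the group, at 276 and 280 CPM in KO+Smad7, 98.0 and 96.1 CPM in KO, and 39.7 and 38.2 CPM in WT. A list for lysosome and autophagy had 25 tested genes outside the group, Lamp2 included. Of these 21 were higher and 4 lower in KO+Smad7 than in KO (median log2 fold 0.32). Between KO and WT 22 were higher and 1 lower in KO (median 0.85). Over all genes tested 37.8% were higher and 36.8% lower for KO+Smad7 against KO. For KO against WT the shares were 34.5% and 33.3%. The protease Ctsd (0.96 and 0.95), the autophagy receptor Sqstm1 (0.80 and 0.94) and the channel Mcoln1 (0.80 and 1.62) moved up at both steps. Tfeb, which drives lysosomal genes, was lower in KO+Smad7 than in KO (−1.21) and higher in KO than in WT (1.17), both called by edgeR's test.

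**Figure D4:**
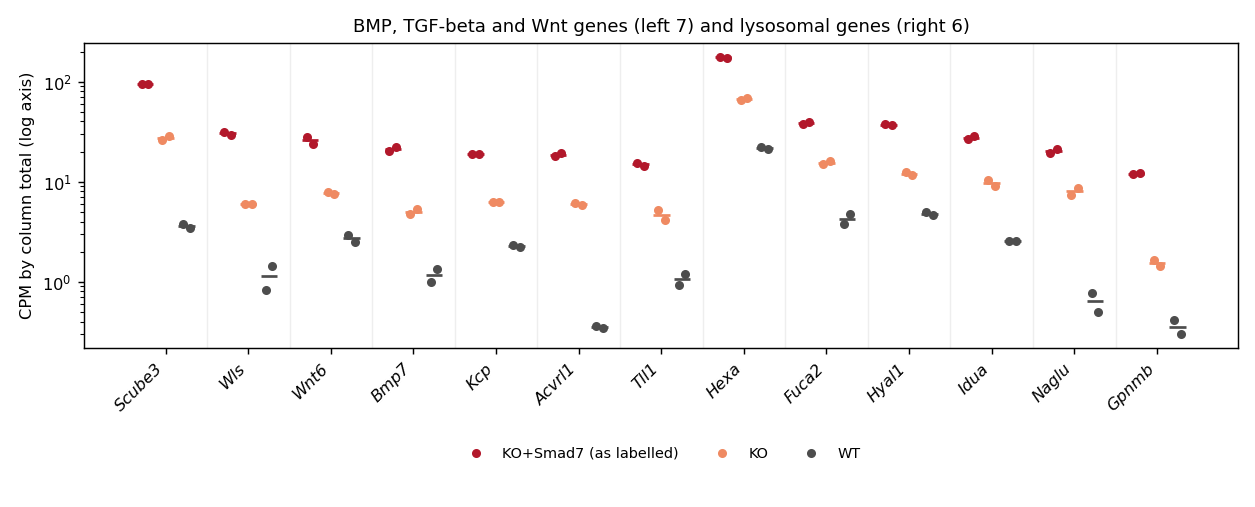
CPM by column total (log axis) in each library for 7 genes of BMP, TGF-beta and Wnt signalling (left) and 6 lysosomal genes (right), with bars for group means; KO+Smad7 red, KO orange, WT grey. The 3 groups are separate in each gene, which follows from the choice of the genes. Gpnmb shows the widest gap between KO+Smad7 and KO among the lysosomal genes.

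The highest transcript of the group was Lrp1, a large endocytic receptor that clears lipoproteins, proteases and matrix proteins, with 1082 and 1175 CPM in KO+Smad7, 369 and 363 CPM in KO, and 61.99 and 58.2 CPM in WT. Per kilobase of exons it ranked lower (63.7 CPM per kilobase in KO+Smad7), below Aqp3 (194), Perp (119) and Hexa (87.5). A2m, a protease inhibitor that Lrp1 clears, had 119.9 and 128 CPM in KO+Smad7, 43.6 and 42.7 CPM in KO, and 8.62 and 7.72 CPM in WT, and did not meet the rule with TMM factors. Serpine2, another inhibitor of proteases, stood at 78.6 and 78.8 CPM in KO+Smad7, 17.96 and 20.9 CPM in KO, and 5.92 and 6.04 CPM in WT.

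Other surface receptors followed. Notch3, a receptor of the Notch family, had 209 and 214 CPM in KO+Smad7, 53.2 and 50.5 CPM in KO, and 21.1 and 19.6 CPM in WT, and did not meet the rule with TMM factors. Ptprv, a receptor tyrosine phosphatase gene induced by p53 in mouse cells, had 224 and 245 CPM in KO+Smad7, 58.98 and 60.9 CPM in KO, and 8.62 and 7.87 CPM in WT. Egfr, the receptor for epidermal growth factor, reached 43.3 and 44.95 CPM in KO+Smad7, 9.82 and 8.84 CPM in KO, and 2.75 and 2.33 CPM in WT. Mst1, which encodes macrophage-stimulating protein, had 34.2 and 36.3 CPM in KO+Smad7, 7.49 and 6.84 CPM in KO, and 0.312 and 0.346 CPM in WT, ratios of 4.92 for KO+Smad7 over KO and 21.8 for KO over WT. Its exons overlap those of Rnf123 on the other strand, and without a stated strand setting their reads cannot be told apart.

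Matrix and secreted proteins made up 14 genes, at 10.1 to 348 CPM in KO+Smad7. Mfge8, a secreted bridge between dying cells and phagocytes, had 332 and 363 CPM in KO+Smad7, 127 and 131 CPM in KO, and 46.4 and 46.4 CPM in WT. Matn1, a cartilage matrix protein, had 73.4 and 72.5 CPM in KO+Smad7, 16.3 and 15.8 CPM in KO, and 0.779 and 0.841 CPM in WT. Collagen genes in the group were Col6a4, Col9a3 and Col22a1, at ratios of 4.001, 8.27 and 3.31 for KO+Smad7 over KO and 3.60, 2.501 and 4.86 for KO over WT. With TMM factors 7 of the 14 met the rule, and Mfge8 and Col9a3 did not.

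Summed, the levels of fibroblast and feeder cell markers moved in the same order as these matrix genes. The summed level of 10 markers was 20.01 and 19.97 CPM in KO+Smad7, 9.87 and 8.74 CPM in KO, and 6.65 and 7.37 CPM in WT, with Twist2 and Fap at 0 in all libraries. None was in the group, and only Col1a1, Thy1 and Pdgfrb passed the filter on low counts, all 3 higher in KO+Smad7 than in KO. Between KO and WT, Thy1 and Pdgfrb were higher in KO by edgeR's test. Col1a1 did not pass there (log2 fold −0.64, adjusted p = 0.091). In bulk RNA more cells of a type and more RNA per cell cannot be told apart. The part of these markers in the matrix genes was not tested. Markers of embryonic stem cells (16 genes) summed to 7092 and 7045 CPM in KO+Smad7, 8849 and 8949 CPM in KO, and 5751 and 5792 CPM in WT, and those of primitive endoderm (15 genes) to 533 and 548 CPM, 353 and 338 CPM, and 650 and 638 CPM in the same groups. Neither list follows the stepwise order, and 13 markers of 2-cell-like cells summed to at most 0.822 CPM in any library. All 13 tested genes of the primitive endoderm list were lower in KO than in WT by edgeR's test (median log2 fold −2.32), against 33.3% of all genes tested. Between KO+Smad7 and KO 8 were higher and 1 lower (median 0.77), where 37.8% and 36.8% of all genes were. The part of this difference in the results for the group was not tested.

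Channels and transporters were the largest set by role, with 19 genes. Aqp3, a channel for water and glycerol, had 341 and 369 CPM in KO+Smad7, 80.95 and 83.9 CPM in KO, and 6.802 and 6.73 CPM in WT. Slc4a11, a transporter of the bicarbonate transporter family, stood at 174 and 186 CPM in KO+Smad7, 35.3 and 37.5 CPM in KO, and 11.5 and 11.9 CPM in WT. The 2 greatest ratios of KO+Smad7 over KO, 15.1 and 13.9, belonged to genes typical of neurons at low levels. Cacna1e, a voltage-gated calcium channel, had 10.98 and 13.5 CPM in KO+Smad7, 0.496 and 1.13 CPM in KO, and 0.156 and 0.198 CPM in WT, and Svop, a synaptic vesicle protein, had 12.5 and 12.9 CPM in KO+Smad7, 0.694 and 1.13 CPM in KO, and 0.363 and 0.198 CPM in WT.

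Without KO replicate 2 the log2 ratio of Cacna1e between KO+Smad7 and KO became 4.63, against 3.91 with both libraries, and the KO libraries held 10 and 22 counts. Ano3, of the anoctamin family, had higher counts, with 80.1 and 79.9 CPM in KO+Smad7, 6.696 and 6.32 CPM in KO, and 2.13 and 1.58 CPM in WT. Ano3 overlaps Muc15 and Svop overlaps Usp30 on the opposite strand by at least 50 bases of exon, and their reads cannot be told apart. Psd2, a brain-enriched exchange factor for Arf proteins, had 30.6 and 32.2 CPM in KO+Smad7, 3.67 and 2.98 CPM in KO, and 0.779 and 0.792 CPM in WT. Neuronal genes did not rise as a list. Of 18 tested genes on a list of neuronal and secretory genes, 6 were higher and 7 lower in KO+Smad7 than in KO (median log2 fold 0.02). Over all genes tested 37.8% were higher and 36.8% lower by edgeR's test.

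Genes of growth arrest and stress were also present. Perp, a p53-induced membrane protein that acts in apoptosis and in desmosomes, had 244 and 221 CPM in KO+Smad7, 74.3 and 75.6 CPM in KO, and 17.9 and 16.2 CPM in WT. Ccng2, an atypical cyclin of arrested cells that FoxO factors induce, had 125 and 116 CPM in KO+Smad7, 43.4 and 43.9 CPM in KO, and 4.05 and 4.602 CPM in WT. Chac1, which degrades glutathione under amino acid stress, stood at 41.96 and 47.1 CPM in KO+Smad7, 10.6 and 11.9 CPM in KO, and 1.19 and 1.43 CPM in WT. Tsc22d3, a glucocorticoid- and FoxO-responsive regulator on the X chromosome, had 20.7 and 22.4 CPM in KO+Smad7, 7.14 and 7.196 CPM in KO, and 0.312 and 0.544 CPM in WT. Of these 4 genes, Ccng2 alone did not meet the rule with TMM factors.

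Card14, a scaffold of NF-kappa B signalling, was near absent outside KO+Smad7, with 138 and 164 counts in KO+Smad7, 23 and 15 in KO, and 1 and 1 in WT. Its exons overlap those of Sgsh on the other strand. Tnfaip3, which restrains the same pathway, had 13.8 and 13.3 CPM in KO+Smad7, 5.31 and 5.45 CPM in KO, and 0.883 and 0.9401 CPM in WT. Parp10, a mono-ADP-ribosyltransferase, was near the threshold for KO over WT (2.52) and overlaps Plec on the same strand. None of Card14, Tnfaip3 and Parp10 met the rule with TMM factors. Card14 missed it by the minimum of 10 CPM. With column totals its mean in KO+Smad7 was 10.3 CPM, and its ratios were 10.8 for KO+Smad7 over KO and 18.9 for KO over WT.

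Perp was the only member among 27 genes on a list of p53 targets, where 1.89% of the 9602 genes above met both ratios. Of the other 26, 20 were higher and 4 lower in KO+Smad7 than in KO (median log2 fold 0.84). Between KO and WT 12 were higher and 6 lower in KO (median 0.16). Over all genes tested 37.8% were higher and 36.8% lower for KO+Smad7 against KO. For KO against WT the shares were 34.5% and 33.3%. Pmaip1 (1.59 and 1.08), Btg2 (1.29 and 1.01) and Eda2r (1.08 and 1.06) were higher at both steps. Trp53inp1 (2.31) and Mdm2 (1.48), a partner and the main inhibitor of p53, were higher in KO+Smad7 than in KO, and did not pass between KO and WT (−0.09 and −0.02; adjusted p = 0.098 and 0.65). On a list of FoxO and growth factor withdrawal targets, 11 of 19 genes other than Ccng2 and Tsc22d3 were higher and 3 lower in KO+Smad7 than in KO (median 0.24), and 16 were higher and 1 lower in KO than in WT (median 0.85).

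The germline and meiosis list had 1 member, Hormad1, a protein of meiotic chromosome axes, with 31.4 and 28.7 CPM in KO+Smad7, 11.1 and 10.5 CPM in KO, and 4.36 and 3.71 CPM in WT; it did not meet the rule with TMM factors. Of the other 20 tested, 17 were higher and 1 lower in KO+Smad7 than in KO (median log2 fold 1.34). Between KO and WT 5 were higher and 10 lower in KO (median −0.40). Over all genes tested 37.8% were higher and 36.8% lower for KO+Smad7 against KO. For KO against WT the shares were 34.5% and 33.3%. The lists of MHC class I presentation (14 genes tested), imprinted genes (27), keratins and trophectoderm (14), and neuronal and secretory genes (18) had no member in the group. With 1.89% of the 9602 genes above in the group, nothing is read from these counts of members.

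Of 13 transcription and RNA regulators, 11 met the rule with TMM factors. Rora, a nuclear receptor of the circadian clock that oxygen shortage can induce, had 40.99 and 41.4 CPM in KO+Smad7, 8.78 and 8.53 CPM in KO, and 1.45 and 1.88 CPM in WT. Ebf1, a factor of B cell and mesenchymal development, had 58.02 and 57.9 CPM in KO+Smad7, 16.4 and 14.03 CPM in KO, and 2.96 and 3.17 CPM in WT. Aire, which in the thymus drives display of tissue antigens, had 56.9 and 59.98 CPM in KO+Smad7, 15.4 and 16.8 CPM in KO, and 2.49 and 3.12 CPM in WT. Fos, an immediate early factor, stood at 28.3 and 26.8 CPM in KO+Smad7, 8.33 and 9.92 CPM in KO, and 1.61 and 1.63 CPM in WT.

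Metabolic enzymes (16 genes) and genes of cilia and cytoskeleton (11) had median levels of 24.3 and 18.5 CPM in KO+Smad7. Ephx1, a detoxifying epoxide hydrolase, was among the higher ones, with 114 and 126 CPM in KO+Smad7, 35.5 and 37.4 CPM in KO, and 3.32 and 4.45 CPM in WT. Pla2g4a, the phospholipase that releases arachidonic acid, had 24.4 and 24.3 CPM in KO+Smad7, 6.796 and 6.32 CPM in KO, and 0.363 and 0.495 CPM in WT. Anxa2, a membrane-binding annexin, had 172 and 182 CPM in KO+Smad7, 53.2 and 57.8 CPM in KO, and 10.1 and 11.03 CPM in WT. Ahnak2, a giant scaffold protein, had 185 and 193 CPM in KO+Smad7, 30.3 and 31.3 CPM in KO, and 3.74 and 2.72 CPM in WT. Noncoding members were few: Platr11, a transcript named for its link with pluripotency, had 22.6 and 21.9 CPM in KO+Smad7, 8.43 and 7.09 CPM in KO, and 0.675 and 0.495 CPM in WT, without meeting the rule with TMM factors, and Dubr had 19.04 and 18.1 CPM in KO+Smad7, 3.08 and 2.98 CPM in KO, and 0.935 and 0.742 CPM in WT.

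**Figure D5:**
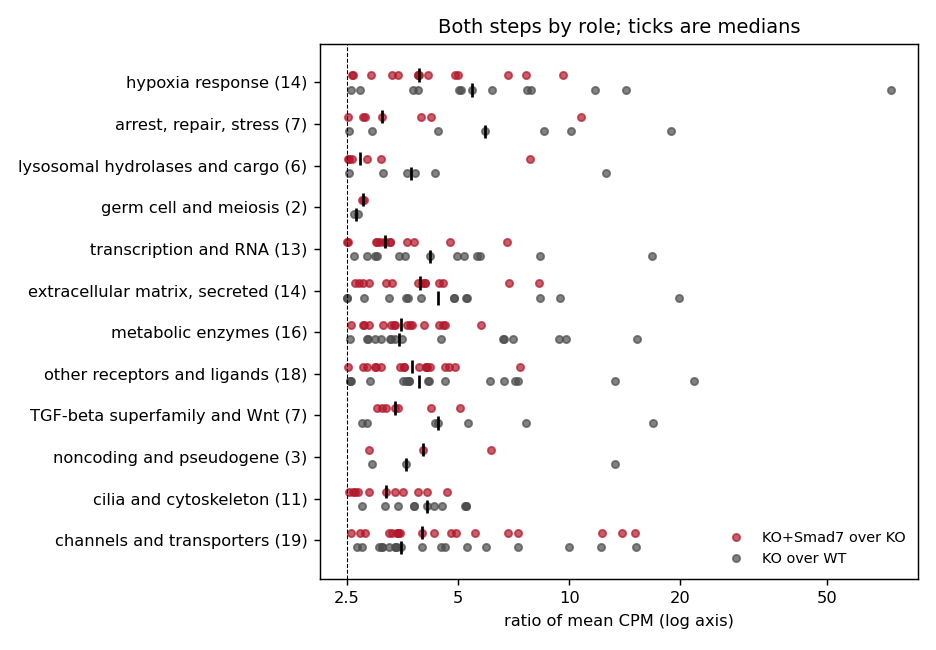
Ratios of mean CPM (log axis) for the 130 genes assigned to 12 roles, with KO+Smad7 over KO in red above KO over WT in grey; short black ticks are medians and the dashed line is the ratio of 2.5 that the choice required. The oxygen response has medians of 3.91 and 5.45, and Ndufa4l2 stands alone at 74.7 for KO over WT.

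Some members are neighbours on the chromosome. With fewer than 100000 bases between them, 16 members formed 7 runs. The run of 3 on chromosome 10 (GRCm38) held Ndufa4l2 (127514967 to 127517154, plus strand), Nxph4 (127525473 to 127534559, minus strand) and Lrp1 (127538161 to 127621148, minus strand), within 106182 bases. Nxph4, a neurexophilin secreted in the nervous system, had 22.8 and 22.2 CPM in KO+Smad7, 6.85 and 6.07 CPM in KO, and 0.623 and 0.346 CPM in WT. Between Ndufa4l2 and Nxph4 lies Shmt2, a mitochondrial serine hydroxymethyltransferase, which did not share the order: its mean was 315 CPM in KO+Smad7, 349 CPM in KO and 176 CPM in WT.

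A second run of 3, on chromosome 2, held Patl2, Sord and Duox1 within 227865 bases, and none of the 3 met the rule with TMM factors. In the same stretch lay B2m, inside the span of Patl2 on the other strand, which encodes the light chain of MHC class I, at means of 47.2 CPM in KO+Smad7, 15.4 CPM in KO and 9.08 CPM in WT, and Duox2, between Sord and Duox1, at 1.61, 0.352 and 0.0519 CPM in the same groups. Cxcl16 and Zmynd15 on chromosome 11 are on opposite strands within 12220 bases, and had means of 15.4 and 17.3 CPM in KO+Smad7, 4.30 and 5.09 CPM in KO, and 1.04 and 1.36 CPM in WT. Hyal1 and Slc38a3, Zbtb4 and Fgf11, Cyp27a1 and Wnt6, and Rora and Anxa2 formed the other runs. Whether neighbours recur more often than for other genes was not tested.

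By the GENCODE release M21 annotation, 178 of the 181 genes had 1 position by symbol, and 174 of these were protein-coding (97.8%, against 99.1% of 9320 other genes with at least 10 CPM in KO+Smad7). The median exonic length was 5429 bases (quartiles 3563 and 8273), against 4837 bases (3132 and 7354) in the others, and the median GC content of the longest transcript was 51.7% against 49.5%. On the X chromosome lay 8 genes, 4.49% against 3.73% of the others. Exons of 33.1% overlapped another gene's by at least 50 bases, against 33.8% of the others. Of the genes named in the text, Plod2, Ptprv, Ndrg1, Notch3, Anxa2, Hexa, Scube3, Loxl2, Ano3, Aire, Rora, Mst1, Col6a4, Idua, Col9a3, Stc1, Kcp, Acvrl1, Dubr, Svop, Letm2, Card14 and Antxr1 overlap a gene on the opposite strand, as do Cxcl16 and Zmynd15 with each other, and Ephx1, Hyal1 and Parp10 overlap one on the same strand. Their reads cannot be told apart from those of the overlapping gene where exons are shared. The median level in KO+Smad7 was 24.5 CPM, against 50.6 CPM in the others.

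For KO over WT, Adamtsl5 (2.5002), Col9a3 (2.501) and Parp10 (2.52) were just inside and Lamp2 (2.49), Vasn (2.47) and Glp1r (2.46) just outside. For KO+Smad7 over KO, Patl2 (2.51), Sema4g (2.51) and Ppp2r2c (2.51) were inside, and Selenon (2.4999), BC034090 (2.499) and Phactr2 (2.49) outside. For the level in KO+Smad7, Antxr1 (10.004 CPM), Robo3 (10.1) and Igfbp5 (10.1) were inside, and Zan (9.96), Col20a1 (9.88) and Fn3k (9.72) outside. When the ratio was asked of the lowest library of the higher group over the highest library of the lower group, 132 of the 181 genes met it.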

How the data were processed

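The authors deposited raw read counts per gene symbol. The tools STAR and featureCounts 1.6.3 and the builds mm10 and GRCm38 are named, per the submitters' processing notes, but not what each was used for. For annotation release, strand setting and handling of shared reads, the sources used here give nothing. Libraries were made from poly(A)-selected RNA with the TruSeq kit, per the labels' protocols. Deposited counts of 6 columns whose names match sample labels were used. The 2 columns R1 and R2, which could not be assigned to a group, were not. The planned comparison of the group transfected with lncSmad7 was therefore not run.

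CPM used column totals. The members and lists were chosen with earlier results of these data known, and roles were assigned by hand after the members were known. Tests of genes outside the group used edgeR 4.0.16 (R 4.3.3): filterByExpr, TMM, quasi-likelihood F-test over all 6 libraries (3 residual degrees of freedom), Benjamini-Hochberg adjustment over 17342 genes, threshold 0.05. P-values measure the spread between libraries, which may be technical. The fit was tested on simulated data. Named members were the 12 highest in KO+Smad7, the 6 with the greatest ratio at each step (at least 10 counts in the lower group), those on a list and those next to a threshold, 41 in all, and other members named in the text were chosen after their values were seen. Alternatives were DESeq2 1.42.0, RLE and column-total scaling, no filter, a replicate block, other thresholds and each library left out. Sequences are from RefSeq (GRCm38.p6) and positions from GENCODE M21 (GRCm38).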

Additional observations from a re-analysis of the deposited data

How the results depend on the processing

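The count of 181 stepwise genes depends on the scaling and the thresholds. It was 106 with TMM scaling and 97 with RLE scaling. It was 369 with a ratio of 2, 102 with a ratio of 3 and 116 with a minimum of 20 CPM. A minimum of 5 CPM gave 262, clone names kept 190 and the rule asked of every pair of libraries 132. With each library left out in turn it lay between 171 and 186, of which 164 to 174 were among the 181.

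The genes called by edgeR between KO+Smad7 and KO numbered 12945, and 9592 by DESeq2; between KO and WT they numbered 11747, and 8985 by DESeq2. With column-total scaling, chosen after seeing the data, 65.7% of calls between KO+Smad7 and KO were higher (50.7% with TMM factors) and 61.7% of those between KO and WT (50.9%). The replicate block gave 12982 and 11822 calls. Replicate numbers do not show pairing, as deviations of same-numbered libraries correlated at 0.036, 0.0081 and 0.055. With a library left out the calls lay between 11667 and 13195, and between 10712 and 11881.

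Of 162 ratios of the named genes recomputed with TMM or RLE factors, 111 moved by more than the spread between replicates and 51 did not. Ratios of Igfbp5 (KO over WT) and Cacna1e (both steps) moved by over 1.5 times with a library left out; without WT replicate 2 the log2 ratio of Igfbp5 was 3.82 against 3.06, and without KO replicate 2 that of Cacna1e was 1.49 (KO over WT) against 2.20. Of 168 list counts recomputed by DESeq2, RLE scaling and the block, 161 stayed within 1.5 times; the 7 others were small counts of the p53, germline, keratin, neuronal and fibroblast lists. No conclusion was drawn from the motif shares planned for the promoters, because fewer than 80% of the genes had a window. In WT 21 of the 181 genes had fewer than 20 counts over both libraries, which limits the precision of their KO over WT ratio.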
